A study of Mus musculus with 8 samples.

Results

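The genes examined here build and drive the DNA replication machinery: 54 genes, of 54838 genes counted, chosen by name for their part in origin licensing (15 genes), origin firing (8), the work of the replication fork (26) and the E2F control of the program (5). *iMLL-AF9* leukemic cells of the mouse were treated with IOX5 (4 samples) or with DMSO (4 samples), and 52 of the 54 genes had a log2 fold change below 0, as did 47.2% of all genes tested. The median over the 54 was -0.25, a level 16.2% lower, while the median over all 12405 genes tested was 0.017. By edgeR without a replicate block, the loading factors *Cdc6* and *Cdt1*, the helicase subunit *Mcm4*, the helicase activator *Mcm10*, the primase subunit *Prim2*, the fork protein *Clspn* and the repressor *E2f8* fell past the test's threshold. These were 7 of the 54 (13%, against 1.25% of all genes), and none of the 54 rose past it (0.774% of all genes). The number depended on the fit, for these genes and for all genes. Leaving out 1 sample gave 0 to 16 (0 to 2.64% of all genes). The replicate number as a block gave 32 (9.43% of all genes). The level of *Cdc6*, the gene farthest from 0, was 28.8% lower, 11 genes were lower by more than 20%, 32 by 10 to 20%, and 11 differed by less than 10% in either direction.

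A cell copies its genome by first licensing origins and then firing them. The origin recognition complex, ORC, marks an origin, and CDC6 and CDT1 load the MCM2-7 helicase onto it, while geminin holds CDT1 back after S phase has begun. The kinase CDC7 with its partner DBF4 then acts on the loaded helicase, CDC45 and the GINS complex join it, and MCM10 helps it to start unwinding, after which polymerases, the sliding clamp PCNA, its loader RFC, nucleases and a ligase copy and seal both strands. Most of these genes are transcribed in late G1 and S phase under E2F transcription factors, of which E2F1, E2F2 and E2F3 are counted as activators and E2F7 and E2F8 as atypical repressors that act later in S phase.

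The cells were labelled as WT, bone-marrow leukaemic stem cells carrying *iMLL-AF9*, a doxycycline-inducible allele of the *MLL-AF9* fusion oncogene on a C57BL/6 background, while the series' design text calls the cells preleukaemic. DMSO is the solvent control, and IOX5 is a selective inhibitor of the PHD enzymes, which mark HIF-α for destruction. The labels give the dose and duration for none of these samples, and they do not say what the replicate numbers 1 to 4 stand for, so that p-values measure only the spread between these samples. The labels give no age for the mice behind these samples and do not say whether a sample came from 1 animal.

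Gene counts summed to 12343770 to 14116054 per library with DMSO and to 11351507 to 12708888 per library with IOX5. Each of the 54 genes passed the filter on low counts, with between 2115 and 55480 reads summed over the 8 samples. Of 8 known HIF targets listed as a check of treatment, 5 rose with IOX5 by edgeR without a replicate block (*Ankrd37*, *Pdk1*, *Pgk1*, *Bnip3* and *Ldha*), and the other 3 (*Vegfa*, *Egln3* and *Slc2a1*) had fold changes above 0 that missed its threshold. DESeq2, and edgeR with the replicate number as a block, called all 8 higher. IOX5 sample 2 had the smallest library and the highest share of reads not aligned, 4.86%, against 3.38 to 3.70% in the other IOX5 samples and 2.98 to 3.28% in the DMSO samples. All 12 myeloid progenitor markers were tested, with a summed level of 2938 to 5440 CPM (TMM-normalized counts scaled to a common library size) in DMSO and 3407 to 6255 in IOX5, whereas the 6 T cell markers summed to at most 0.162 CPM in any sample, with 4 of the 6 (*Cd3g*, *Cd4*, *Cd8a* and *Cd8b1*) at 0 in all 8 samples. The 7 macrophage markers summed to 149 to 209 CPM in DMSO and 227 to 503 CPM in IOX5 with no overlap, and the 7 neutrophil granule markers to 271 to 1082 and 377 to 1786 CPM with overlap. Sums over the 5 mast and basophil markers (126 to 486 and 249 to 749 CPM) and the 5 megakaryocyte markers (16.5 to 65.3 and 39.2 to 119 CPM) overlapped too, and erythroid, B cell and stromal markers summed to at most 40.9, 8.71 and 5.22 CPM. By edgeR without the block no gene of these marker lists was called. With the block, 7 of 12 myeloid progenitor, 2 of 6 macrophage (*Adgre1* and *Mrc1*), 5 of 6 neutrophil granule and 5 of 5 mast and basophil markers tested were higher with IOX5. So were 3 of 5 megakaryocyte and 2 of 4 erythroid markers tested. The share of all genes was 11.2%, and no marker was lower, against 9.43% of all genes. DESeq2 called 2 macrophage, 1 neutrophil granule and 1 megakaryocyte marker higher, against 4.67% of the genes to which it gave an adjusted p. The part of these marker genes in the values below was not tested.

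The letters that E2F factors are known to read lie in the promoters of many of these genes, so promoter stretches of 6 of them are shown here before the values. Windows running from 250 bases before to 50 after each transcription start (RefSeq, GRCm38.p6, start counted as +1), were at hand for 45 of the 54 genes. They were searched on both strands for TTTCCCGC, TTTGGCGC, TTTCGCGC and TTTGCCGC, which can overlap each other. The first pair of stretches gives the 250 bases before the start of *Mcm6*, the gene with the most words (3, of which 2 overlap), and of *E2f7*, itself an E2F gene. The other 4 give the surroundings of the word in *Cdc6*, *Cdt1* and *Clspn*, which fell past the threshold, and in *Mcm5*, where 2 words overlap. All are written 5′ to 3′ on the gene's strand, with the E2F words in capitals.
Mcm6, chr1:128359706-128359955, minus strand: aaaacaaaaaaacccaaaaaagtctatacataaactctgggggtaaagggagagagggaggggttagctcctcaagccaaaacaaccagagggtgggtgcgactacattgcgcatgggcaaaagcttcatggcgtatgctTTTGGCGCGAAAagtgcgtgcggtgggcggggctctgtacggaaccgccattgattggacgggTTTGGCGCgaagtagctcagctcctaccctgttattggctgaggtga
E2f7, chr10:110745189-110745438, plus strand: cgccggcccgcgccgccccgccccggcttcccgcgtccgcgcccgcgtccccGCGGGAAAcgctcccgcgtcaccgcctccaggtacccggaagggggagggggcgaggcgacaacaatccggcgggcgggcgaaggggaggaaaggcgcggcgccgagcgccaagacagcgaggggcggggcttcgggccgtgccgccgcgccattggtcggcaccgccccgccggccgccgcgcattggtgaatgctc
Cdc6, chr11:98908002-98908031, plus strand: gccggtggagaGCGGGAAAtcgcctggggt
Cdt1, chr8:122568036-122568064, plus strand: ggaactaccttTTTGGCGCcatggcgcaa
Mcm5, chr8:75109345-75109374, plus strand: gcgccaagaacTTTCGCGCCAAAacgtcca
Clspn, chr4:126556990-126557019, plus strand: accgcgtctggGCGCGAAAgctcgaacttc

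The word began 138 bases before the start in *Cdc6*, 198 before it in *E2f7*, and at positions +33 and +22 in *Cdt1* and *Clspn*. Of the 45 genes with a window, 20 (44.4%) held an E2F word, against 452 of 9320 tested genes with a window (4.85%) and 2.26% of all 32851 windows. By role, a word was found in 8 of 13 licensing genes, 1 of 5 firing genes, 8 of 22 fork genes and 3 of 5 E2F regulators, and of the 5 called genes with a window 3 held a word. The 20 genes with a word had a median log2 fold change of -0.28 and the 25 without had -0.22, with ranges that overlapped (-0.49 to -0.07 and -0.39 to 0.02). For comparison, the core words ACGTG and GCGTG, which HIF reads, stood in 30 of the 45 genes (66.7%) and in 68.2% of tested genes. A word is a match of letters and not a shown binding site, the base composition of the windows was not matched, and several genes have more than 1 window.

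**Figure D1:**
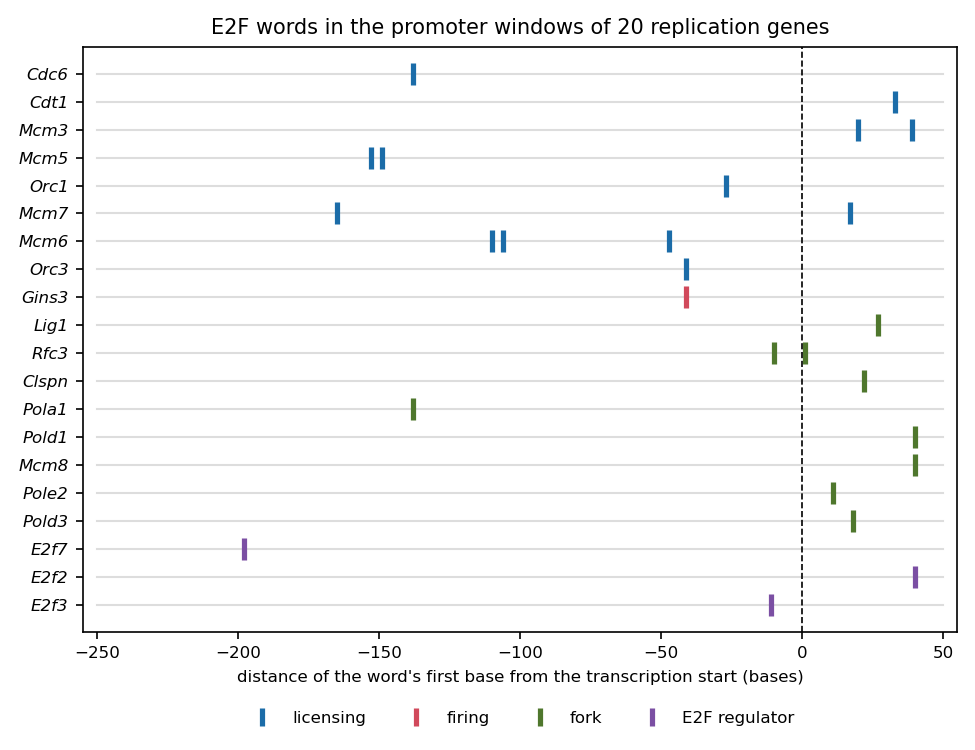
Position of each E2F word in the promoter windows of the 20 replication genes that hold one, as the distance in bases of the word's first base from the RefSeq transcription start (dashed line), coloured by role and ordered within a role by fold change. The words of *Cdc6*, *Mcm5*, *Mcm6* and *E2f7* lie before the start, while those of *Cdt1*, *Lig1* and *Clspn* lie after it.

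The comparison of IOX5 with DMSO asks how the inhibitor altered expression in these cells. By edgeR's quasi-likelihood test with Benjamini-Hochberg adjustment over all genes tested, 7 of the 54 genes (13%) fell at an adjusted p under 0.05, where the same call was made for 1.25% of all genes tested and a call in either direction for 2.02%. No member rose, against 0.774% of all genes, and at an unadjusted p under 0.05 the counts were 35 lower and 0 higher, against 11.2% and 8.98% of all genes. Samples of equal number deviated from their group means in the same way, and with the replicate number as a block 32 of the 54 genes (59.3%), the 7 among them, were lower and 0 higher, against 9.43% and 11.2% of all genes. DESeq2 called 19 lower and 0 higher, against 5.75% and 4.67% of the genes to which it gave an adjusted p. Below, a gene called with the block or in neither fit is so called in the 2 edgeR fits, and calls by DESeq2 are named where edgeR without the block made none. In 28 of the 54 genes every IOX5 sample lay below every DMSO sample, which held for 8.3% of all genes, and in 41 the IOX5 sample lay below the DMSO sample of its own number in all 4 pairs, which held for 19.8%. In 0 of the 54 did every IOX5 sample lie above every DMSO sample (5.98% of all genes) or above its own DMSO sample in all 4 pairs (21.3%). Without the block the number called changed with the sample left out. Leaving out DMSO sample 1, 2, 3 or 4 or IOX5 sample 1 or 3 left 0 of the 54 called. Leaving out IOX5 sample 2 left 1 (*E2f8*), and leaving out IOX5 sample 4 gave 16. All genes called lower numbered between 0 and 333 in these fits. Without DMSO sample 3 or 4 or IOX5 sample 3, 0 of all genes tested were called in either direction. With the block, leaving out a whole replicate number gave 19, 24, 11 and 36 genes lower for numbers 1 to 4, and the median over the 54 stayed between -0.19 and -0.29 in each of these fits.

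**Figure D2:**
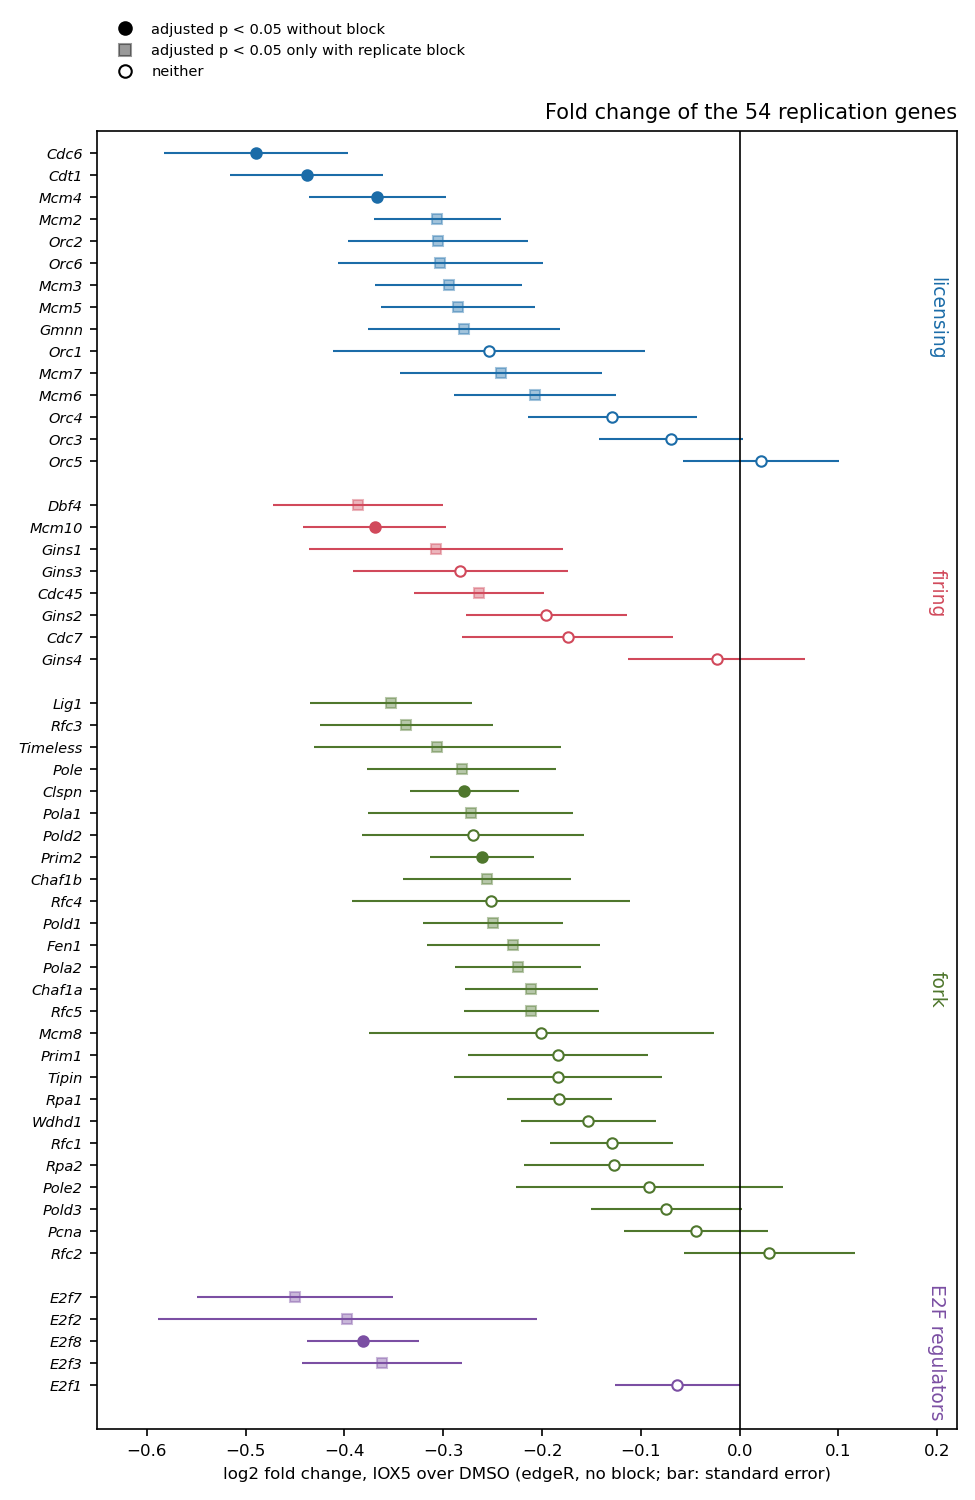
Log2 fold change, IOX5 over DMSO, of the 54 genes by role, from edgeR without the block, with bars for the standard error. Filled circles mark the 7 genes called without the block, shaded squares the further 25 called by edgeR with it, and open circles the 22 called in neither edgeR fit; *Orc5* and *Rfc2* alone lie right of 0.

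Together the 54 genes took 0.720 to 0.756% of the gene counts of a DMSO library and 0.560 to 0.679% of those of an IOX5 library, with no overlap. In bulk RNA, fewer cells in S phase and less of each mRNA per cell cannot be told apart. The IOX5 samples were not alike. IOX5 sample 2 was the lowest IOX5 sample for 44 of the 54 genes and IOX5 sample 4 the highest for 34. IOX5 sample 2 was also the highest IOX5 sample for *Adgre1* (170.5 CPM, others 65.7 to 87.2) and *Mrc1* (63.7 CPM, others 16.0 to 36.1). These are the macrophage markers called with the block. Of the neutrophil granule markers called with it, IOX5 sample 2 was highest for *Ltf*, *Ngp*, *S100a8* and *S100a9* and lowest for *Ly6g*. DMSO sample 2 was likewise highest of the DMSO samples for *Ltf*, *Ngp*, *S100a8* and *S100a9* and lowest for *Ly6g*. IOX5 sample 2 was the highest IOX5 sample for no mast or basophil marker. A link of these markers to the 54 genes was not tested. Against the DMSO sample of the same number, the median log2 difference over the 54 genes was -0.20, -0.44, -0.24 and -0.10 for samples 1 to 4, where the median over all genes tested lay between -0.00079 and 0.035. Without IOX5 sample 2, 49 of the 54 genes were below 0 and the median was -0.19.

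**Figure D3:**
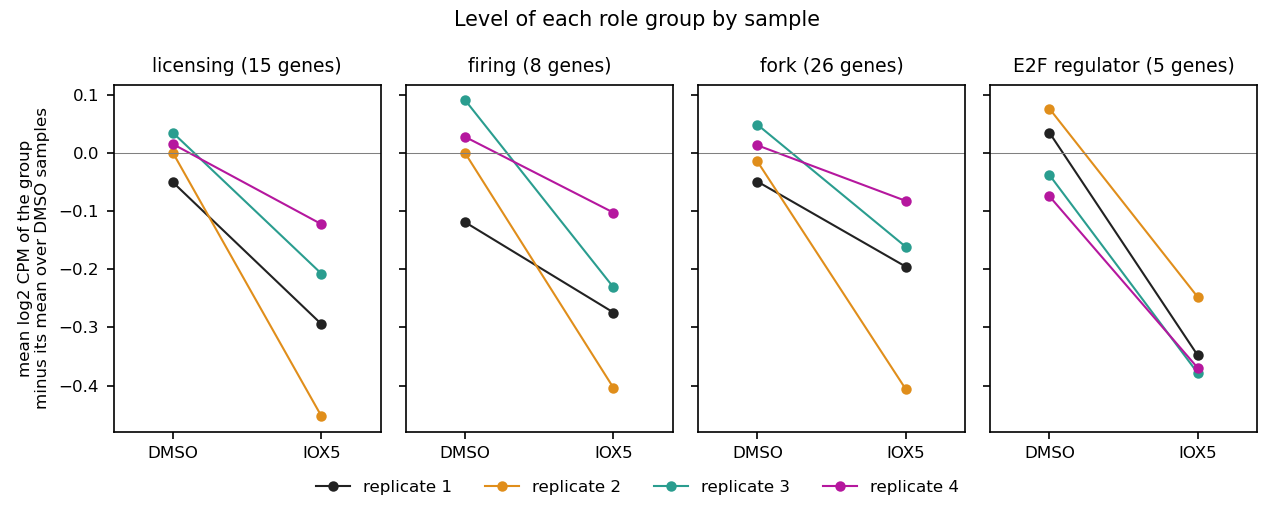
Mean log2 CPM of the genes of each role in each sample, less the mean of that value over the 4 DMSO samples, with lines joining samples of the same replicate number. In the licensing, firing and fork panels IOX5 sample 2 lies lowest and IOX5 sample 4 highest of the IOX5 samples, while in the E2F panel IOX5 sample 2 lies highest at -0.25.

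Among the licensing genes, 14 of 15 had a fold change below 0 (47.2% of all genes), and the median log2 fold change was -0.29. Without the block 3 fell past the threshold (20%) and with it 11 (73.3%), against 1.25% and 9.43% of all genes. The loaders had the lowest fold changes of the 15. *Cdc6* (ENSMUSG00000017499, chr11:98907801-98923940), the ATPase that recruits the helicase to ORC, was measured at 79.2, 94.3, 81.1 and 82.8 CPM in DMSO samples 1 to 4 and at 53.4, 55.2, 65.0 and 66.7 CPM in IOX5 samples 1 to 4. The groups did not overlap, and the fall was 0.49 on the log2 scale, written as a log2 fold change of -0.49 ± 0.09 (SE; edgeR adjusted p = 0.0413). *Cdt1* (ENSMUSG00000006585, chr8:122568015-122573554), its partner in loading, had 101, 107, 106 and 98.5 CPM in DMSO and 69.1, 70.6, 79.6 and 85.0 CPM in IOX5. Its groups did not overlap either, with a log2 fold change of -0.44 ± 0.08 (edgeR adjusted p = 0.0331). *Gmnn*, which encodes the CDT1 inhibitor geminin, had a log2 fold change of -0.28 ± 0.10 that missed the threshold (edgeR adjusted p = 0.16) and passed it with the block (0.0146), so that an activator of loading and its inhibitor both had lower values.

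All 6 MCM2-7 helicase genes had fold changes below 0, from -0.21 for *Mcm6* to -0.37 for *Mcm4*. Without the block 1 was called and with it 6 of 6, against 1.25% and 9.43% of all genes. *Mcm4* (ENSMUSG00000022673, chr16:15623897-15637400) had 341, 365, 358 and 368 CPM in DMSO and 267, 250.2, 292 and 301 CPM in IOX5. No IOX5 sample reached the lowest DMSO sample, and the log2 fold change was -0.37 ± 0.07 (edgeR adjusted p = 0.0409). The log2 fold change of *Mcm2*, -0.31 ± 0.06, just missed the threshold of 0.05 by edgeR and passed it with the block, and DESeq2 called *Mcm2*, *Mcm3*, *Mcm4* and *Mcm5*. In *Mcm2*, *Mcm3*, *Mcm4*, *Mcm5* and *Mcm6* the groups did not overlap, and in *Mcm7* they did. Every IOX5 sample lay below every DMSO sample in 8.3% of all genes. Per kilobase of annotated exon, DMSO levels of the 6 ran from 48.3 ± 1.2 CPM for *Mcm2* to 129 ± 1.4 CPM for *Mcm3* (SD, n = 4), and those of *Mcm3*, *Mcm6* (127 ± 3.0) and *Mcm5* (126 ± 7.5) lay within their spread of each other.

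The 6 ORC genes were less uniform. *Orc2* and *Orc6* passed edgeR's threshold with the block and not without it, and *Orc2* also by DESeq2, with log2 fold changes of -0.31 ± 0.09 and -0.30 ± 0.10, and the groups did not overlap in either. *Orc2* (ENSMUSG00000026037, chr1:58462771-58505109) had 109, 115, 116 and 115 CPM in DMSO and 87.0, 79.5, 93.6 and 108 CPM in IOX5 (edgeR adjusted p = 0.112, and 0.0103 with the block). IOX5 sample 4 lay close to the DMSO samples. *Orc1*, *Orc3* and *Orc4* were called in neither fit, with log2 fold changes of -0.25, -0.07 and -0.13. *Orc5* (ENSMUSG00000029012, chr5:22486485-22550429) had 40.0, 35.8, 36.8 and 35.0 CPM in DMSO and 41.2, 34.7, 36.2 and 37.7 CPM in IOX5, a log2 fold change of 0.02 ± 0.08 (edgeR adjusted p = 0.908) with overlapping groups. Per kilobase the ORC genes ran from 5.98 CPM for *Orc5* to 35.2 CPM for *Orc6* in DMSO. The GINS genes ran from 8.85 to 41.9 CPM.

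**Figure D4:**
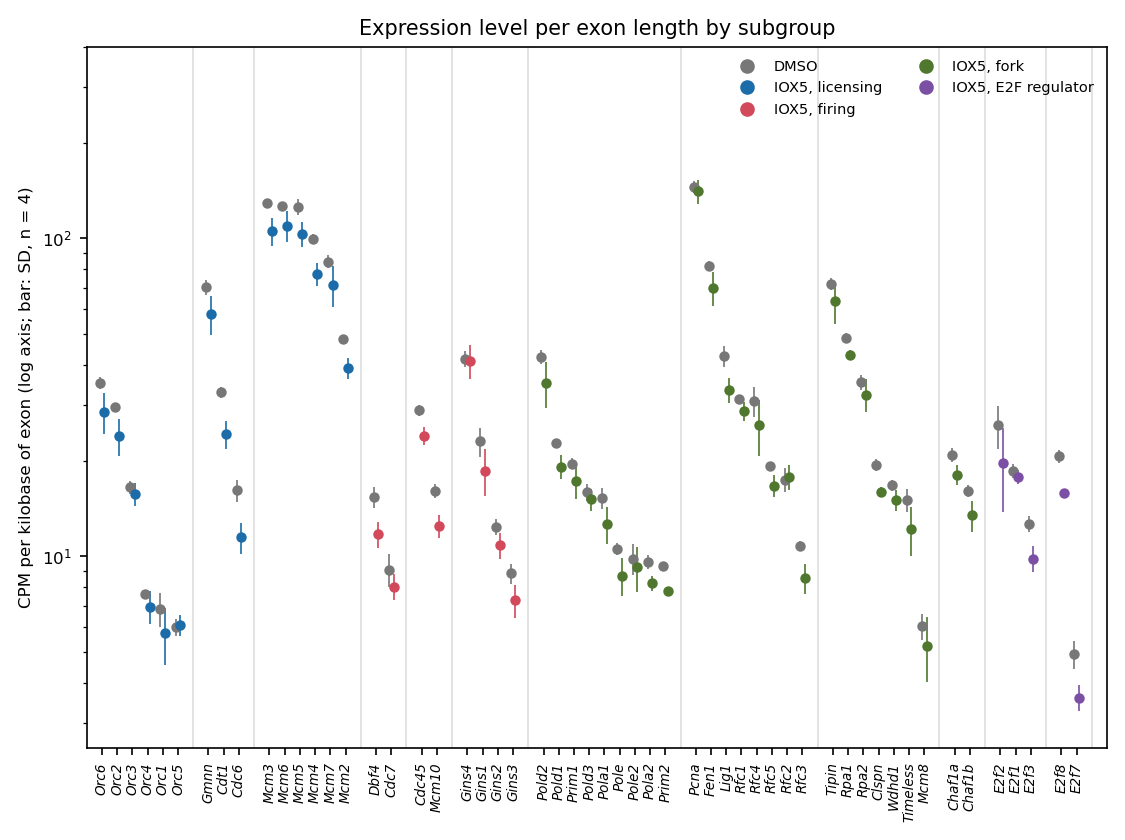
Mean level of each of the 54 genes in CPM per kilobase of annotated exon, on a log axis, in DMSO (grey) and IOX5 (coloured by role), with bars for the SD over 4 samples, in blocks for the 12 subgroups. *Pcna* (145 CPM per kilobase in DMSO) and 3 MCM genes lie highest, and *E2f7* (4.91) lowest.

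Of the 8 firing genes, all had fold changes below 0 (47.2% of all genes), with a median log2 fold change of -0.27. The threshold was passed by 1 without the block and by 4 with it, against 1.25% and 9.43% of all genes. *Mcm10* (ENSMUSG00000026669, chr2:4989714-5012791), which helps the assembled helicase start, had 116, 123, 127 and 129 CPM in DMSO and 91.7, 87.0, 103 and 101 CPM in IOX5. The groups were apart, with a log2 fold change of -0.37 ± 0.07 (edgeR adjusted p = 0.0443). *Cdc45*, a part of the active helicase, had a log2 fold change of -0.26 ± 0.07 and was called with the block and by DESeq2. The members of the firing kinase did not move by the same size. *Dbf4* (ENSMUSG00000002297, chr5:8396973-8422716), the regulatory subunit, had 120.4, 133, 144 and 138 CPM in DMSO and 110.4, 90.6, 97.9 and 111 CPM in IOX5, a log2 fold change of -0.39 ± 0.09 (edgeR adjusted p = 0.056, and 0.00426 with the block), and DESeq2 called it. *Cdc7*, the catalytic subunit, had a log2 fold change of -0.17 ± 0.11 and was called in neither fit; the difference between the subunits was not tested. Of the 4 GINS genes, *Gins1* was called with the block. *Gins3* (ENSMUSG00000031669, chr8:95633453-95645060) had 22.9, 23.2, 26.6 and 23.2 CPM in DMSO and 19.6, 17.0, 19.4 and 22.8 CPM in IOX5, with groups that just failed to meet (log2 fold change -0.28 ± 0.11, edgeR adjusted p = 0.193, and 0.0546 with the block). *Gins4* had a log2 fold change of -0.02 ± 0.09 (edgeR adjusted p = 0.912), a value that turned above 0 on leaving out DMSO sample 3 or IOX5 sample 1 or 2.

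Of the 26 fork genes, 25 had fold changes below 0 (47.2% of all genes), and the median was -0.22 on the log2 scale. Lower calls numbered 2 without the block and 13 with it, against 1.25% and 9.43% of all genes. Among the 9 polymerase and primase genes, *Prim2* (ENSMUSG00000026134, chr1:33453810-33669795), the large primase subunit that with *Prim1* lays down RNA primers, had 54.8, 56.6, 56.1 and 53.6 CPM in DMSO and 47.3, 45.0, 45.9 and 46.3 CPM in IOX5. The samples of each group lay within a few CPM of each other and the groups were apart, so that a log2 fold change of -0.26 ± 0.05 passed (edgeR adjusted p = 0.0469). *Pola1*, *Pola2*, *Pold1* and *Pole*, subunits of the priming, lagging-strand and leading-strand polymerases, were called with the block, at -0.22 to -0.28, and *Pold1* also by DESeq2. *Prim1*, *Pold2*, *Pold3* and *Pole2* were called in neither fit, at -0.07 to -0.27.

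The clamp and its loader did not share a value. *Pcna*, the sliding clamp, had a log2 fold change of -0.04 ± 0.07 (edgeR adjusted p = 0.778). It had 326 to 361 CPM in DMSO and 306 to 376 CPM in IOX5, and 2 annotated *Pcna* pseudogenes leave its level uncertain. Pseudogenes were looked for by symbol only, so those of other genes under unrelated names may have been missed. Reads shared with pseudogenes were not measured. Of the 5 loader genes *Rfc3* and *Rfc5* were called with the block, *Rfc3* also by DESeq2, at -0.34 ± 0.09 and -0.21 ± 0.07, and *Rfc1*, *Rfc2* and *Rfc4* in neither fit. *Rfc2* (ENSMUSG00000023104, chr5:134581366-134601805) had 102, 101, 119 and 116 CPM in DMSO and 111, 99.2, 114 and 124 CPM in IOX5, a log2 fold change of 0.03 ± 0.09 (edgeR adjusted p = 0.881), and its groups overlapped. *Lig1* (ENSMUSG00000056394, chr7:13277283-13311433), the ligase that joins Okazaki fragments, had 182, 201, 176 and 168 CPM in DMSO and 142, 135, 132 and 160.1 CPM in IOX5, with no overlap. Its log2 fold change of -0.35 ± 0.08 missed the threshold (edgeR adjusted p = 0.0606) and passed with the block (0.00711) and by DESeq2. The flap nuclease gene *Fen1* (-0.23 ± 0.09) was called with the block.

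Of the 7 genes for single-strand binding and fork protection, *Clspn* (ENSMUSG00000042489, chr4:126556935-126593903), which encodes claspin, a link between the fork and the checkpoint kinase CHK1, had 136, 143, 145 and 133 CPM in DMSO and 119.6, 111, 112 and 117 CPM in IOX5. The groups were apart, and the log2 fold change was -0.28 ± 0.06 (edgeR adjusted p = 0.0455). *Timeless*, a partner of TIPIN at the fork, had -0.31 ± 0.12 and was called with the block. *Rpa1* (-0.18 ± 0.05), a subunit of the single-strand binding protein RPA, was called by DESeq2 and in neither edgeR fit, and its groups were apart. *Rpa2*, *Wdhd1*, *Tipin* and *Mcm8*, at -0.13 to -0.20, were called in neither fit. Both chromatin assembly genes, whose products place histones behind the fork, were called with the block. *Chaf1a* (ENSMUSG00000002835, chr17:56040439-56072289) had 180.1, 198, 177 and 185 CPM in DMSO and 157, 148, 159.9 and 175 CPM in IOX5, with groups close but apart (log2 fold change -0.21 ± 0.07, edgeR adjusted p = 0.131, and 0.0456 with the block). *Chaf1b* had -0.26 ± 0.09.

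All 5 E2F regulators had fold changes below 0 (47.2% of all genes), with a median log2 fold change of -0.38. The threshold was passed by 1 without the block and by 4 with it, against 1.25% and 9.43% of all genes. The last, *E2f1*, was called in neither fit. *E2f8* (ENSMUSG00000046179, chr7:48866429-48881596) had 112, 117, 115 and 105 CPM in DMSO and 82.5, 87.0, 87.9 and 87.2 CPM in IOX5. The groups were far apart for their spread, and the log2 fold change of -0.38 ± 0.06 had the lowest adjusted p of the 54 genes (edgeR, 0.0254). *E2f7* (ENSMUSG00000020185, chr10:110745439-110787384), its relative, had 46.9, 49.3, 40.4 and 40.5 CPM in DMSO and 34.4, 35.3, 31.3 and 28.6 CPM in IOX5, a log2 fold change of -0.45 ± 0.10 (edgeR adjusted p = 0.0549, and 0.00131 with the block), and DESeq2 called it. In both groups samples 1 and 2 lay above samples 3 and 4, and IOX5 lay below DMSO throughout. Both repressors thus had lower values, as the activators *E2f2* and *E2f3* did.

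Among the activators, *E2f3* (ENSMUSG00000016477, chr13:29906575-29986063) had 65.9, 64.8, 71.0 and 73.0 CPM in DMSO and 55.2, 46.0, 56.5 and 56.0 CPM in IOX5, with groups apart and a log2 fold change of -0.36 ± 0.08 (edgeR adjusted p = 0.056, and 0.00277 with the block), and DESeq2 called it. *E2f2* (ENSMUSG00000018983, chr4:136172394-136196057) had 129, 152, 112 and 111 CPM in DMSO and 84.6, 138, 78.6 and 81.3 CPM in IOX5. Number 2 was the highest sample of either group, the groups overlapped through it, and IOX5 lay below DMSO in each of the 4 pairs. The log2 fold change of -0.40 ± 0.19 missed the threshold (edgeR adjusted p = 0.287) and passed with the block (0.0024), and without IOX5 sample 2 it was -0.63 (0.0531 without the block). *E2f1* (ENSMUSG00000027490, chr2:154559407-154569892), the best known activator, had 62.6, 57.1, 59.1 and 55.9 CPM in DMSO and 55.9, 53.8, 54.5 and 60.4 CPM in IOX5, with overlap and a log2 fold change of -0.06 ± 0.06 (edgeR adjusted p = 0.622).

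**Figure D5:**
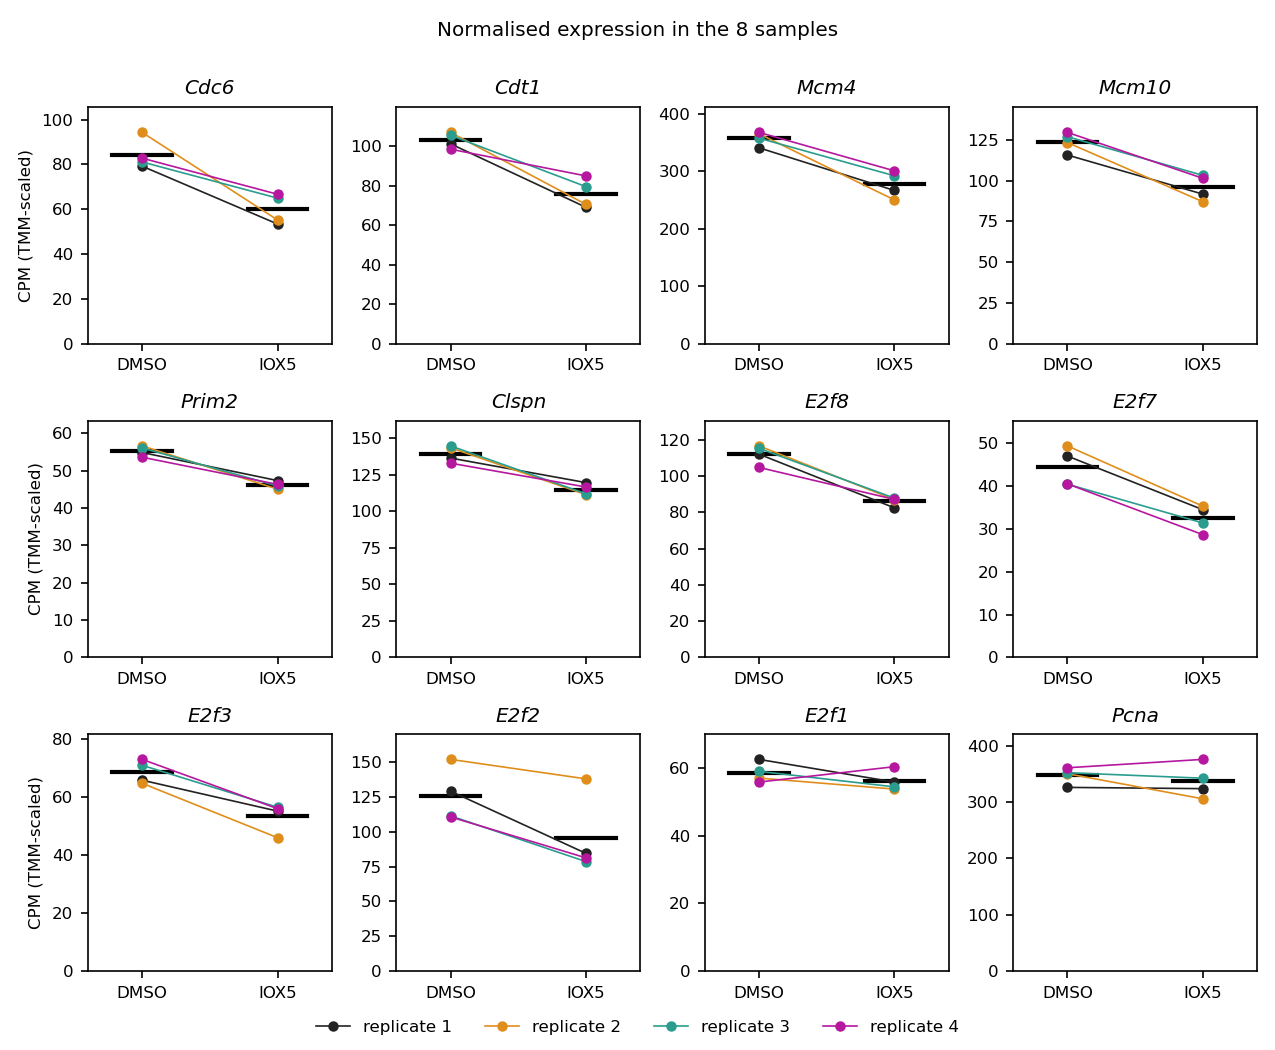
TMM-normalized CPM in each of the 8 samples for the 7 called genes, for the other 4 E2F genes and for *Pcna*, on axes from 0, with lines joining samples of the same replicate number and black bars for group means. In the 7 called genes, *E2f7* and *E2f3* every IOX5 point lies below every DMSO point, while in *E2f2*, *E2f1* and *Pcna* the groups overlap.

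Of 30 further replication genes, 27 had fold changes below 0 (47.2% of all genes), with a median log2 fold change of -0.20. Without the block 3 fell past the threshold (10%, against 1.25% of all genes). With the block 13 were lower and 1, *Rnaseh2c*, was higher, against 9.43% and 11.2% of all genes. *Ticrr*, an activator of origin firing, had 66.9, 67.9, 65.97 and 71.4 CPM in DMSO and 50.9, 50.8, 57.6 and 48.1 CPM in IOX5 (edgeR adjusted p = 0.0316). *Recql4*, a helicase with a part in initiation, had 29.4, 26.9, 27.9 and 31.8 CPM in DMSO and 20.8, 19.2, 23.1 and 21.5 CPM in IOX5 (edgeR adjusted p = 0.0469). *Atad5*, which takes PCNA off DNA, had 102, 99.5, 101 and 102 CPM in DMSO and 79.3, 74.3, 88.5 and 69.5 CPM in IOX5 (edgeR adjusted p = 0.0481). The groups did not overlap in any of the 3 genes, and their log2 fold changes were -0.39 ± 0.07, -0.45 ± 0.09 and -0.38 ± 0.08.

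Of 10 replication checkpoint genes, 8 had fold changes below 0 and 1 fell past the threshold, *Cdc25a*, the phosphatase that releases cyclin-dependent kinases for S phase. *Cdc25a* had 106, 105, 101 and 109 CPM in DMSO and 79.9, 73.6, 85.0 and 84.7 CPM in IOX5, a log2 fold change of -0.38 ± 0.06 (edgeR adjusted p = 0.026) with no overlap. Of the 10, 1 was thus called lower without the block and 2 with it, against 1.25% and 9.43% of all genes. Of 18 genes of the E2F and RB network outside the 54, 13 had fold changes below 0. At an unadjusted p under 0.05, 10 were lower and 0 higher, against 11.2% and 8.98% of all genes. Without the block 0 were called by edgeR, while 7 were lower with it (9.43% of all genes) and 3 by DESeq2 (5.75%). The 2 with the smallest p were *Ccna2*, which encodes cyclin A2, with 258, 279.8, 291 and 283 CPM in DMSO and 198, 184, 221 and 244 CPM in IOX5 (edgeR adjusted p = 0.0597), and *E2f4*, with 127, 120.2, 118 and 125 CPM in DMSO and 105, 98.5, 105 and 110.5 CPM in IOX5 (edgeR adjusted p = 0.0766). In both, every IOX5 sample lay below every DMSO sample.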

How the data were processed

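Poly(A) RNA of 4 DMSO and 4 IOX5 samples was used for strand-specific, single-end sequencing. The authors trimmed reads with cutadapt 1.18, mapped them to GRCm38 with HISAT2 2.2.1 and counted them per gene with HTSeq 2.0.1, and the deposited values are raw counts, 1 table per sample, not normalized. The annotation release and strand setting of the counting are not given in the sources used here. From the values, *Xist* (105071 reads over the 8 samples) and its antisense partner *Tsix* (21) were told apart. By GENCODE M21, exons of 18 of the 54 genes overlap a gene on the opposite strand and those of 4 a gene on the same strand. How the counting treated reads shared by such genes is not known. Names, exon lengths and coordinates came from GENCODE M21, which matched 54809 of 54838 genes.

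The 5 summary lines of each table (20.6 to 22.6% of reads) were left out. In R 4.3.3, edgeR 4.0.16 (filterByExpr, TMM factors, glmQLFit and glmQLFTest, no block) tested 12405 genes, with calls at a Benjamini-Hochberg adjusted p below 0.05. Log2 CPM used a prior count of 2, and standard errors came from the fitted fold change and its test. The common biological coefficient of variation was 0.202, and 0.0794 with the block. The replicate number was fitted as a block because the deviations from the group means of the samples that share a number correlated in every pair (r = 0.758, 0.744, 0.732 and 0.636). Numbers 3 and 4 also correlated with each other across the groups (r = 0.685 for DMSO 4 with IOX5 3 and 0.617 for DMSO 3 with IOX5 4), so these correlations do not tell those 2 numbers apart. What the numbers stand for is not stated. In both groups the sample numbered 1 had almost no *Xist* reads (19 and 1, against 14676 to 21314 in the other samples).

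DESeq2 1.42.0, limma 3.58.1 (voom with sample weights), other scalings and filters, thinned counts and leaving out samples were alternatives. Scripts were tested on simulated data, where recovery was required only for changes larger than any in the 54 genes. No limit was set there on false calls. The 54 genes and the further lists were chosen with earlier results of these data known. Values per sample are given for called genes, the gene of smallest p in each subgroup, the E2F regulators and genes with fold changes above 0. *Mcm2*, *Pcna* and *Gins4* were singled out after their values were seen.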

Additional observations from a re-analysis of the deposited data

Results flagged for a closer look

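A sample was set apart where its distance to the nearest other sample of its group, over the group's range, exceeded Dixon's critical value for 4 samples at the 95% level. This happened in 9 of 118 groups of 4 tested, where chance gives about 1 in 20. IOX5 sample 2 was concerned in 4: it was low for *Cdc7* (29.0 CPM, others 34.8 to 35.8), *Mcm8* (12.8 CPM, others 21.2 to 22.04) and *E2f3* (46.0 CPM, others 55.2 to 56.5) and high for *E2f2* (138 CPM, others 78.6 to 84.6). IOX5 sample 4 was high for *Gins4* (65.5 CPM, others 51.2 to 53.1) and *Rfc3* (36.0 CPM, others 29.1 to 29.3). DMSO sample 3 was high for *Gins3* (26.6 CPM, others 22.9 to 23.2) and *Chaf1b* (80.1 CPM, others 73.3 to 73.7). IOX5 sample 1 was low for *E2f8* (82.5 CPM, others 87.0 to 87.9).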

How the results depend on the processing

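The median log2 fold change over the 54 genes stayed below 0 and moved by less than the spread between pairs under every alternative run, and no gene of the 54 was called higher in any of them. The number called lower did move. Against 7 of 54, DESeq2 gave 19, voom 21, RLE size factors 4, no filter on low counts 3, an adjusted p under 0.1 18, and the replicate block 32; upper-quartile factors (5), at least 10 counts in every sample (7) and thinned counts (7) stayed within 1.5 times. Leaving out 1 sample gave 0 to 16, and the block without replicate number 1, 2, 3 or 4 gave 19, 24, 11 and 36. Of all genes, 1.25% were called lower in the main fit, 5.75% by DESeq2 (of genes with an adjusted p) and 4.92% with voom. RLE factors gave 0.911%, no filter 0.288%, an adjusted p under 0.1 3.92% and the replicate block 9.43%. Upper-quartile factors gave 0.871%, and at least 10 counts or thinned counts 1.31% each. Single samples left out gave 0 to 2.64%, and the block without number 1, 2, 3 or 4 5.28, 8.2, 3.23 and 8.48%.

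For licensing genes (3), DESeq2 gave 7, voom 9, an adjusted p under 0.1 6, the replicate block 11, single samples left out 0 to 8, and the block without a number 4 to 11. For firing genes (1), DESeq2 and voom gave 3, RLE factors and no filter 0, an adjusted p under 0.1 3, the replicate block 4, samples left out 0 to 2, and the block without a number 2 to 5. For fork genes (2), DESeq2, voom and an adjusted p under 0.1 gave 6, RLE and upper-quartile factors and no filter 0, thinned counts 1, the replicate block 13, samples left out 0 to 5, and the block without a number 1 to 16. For E2F regulators (1), DESeq2, voom and an adjusted p under 0.1 gave 3, the replicate block 4, samples left out 0 to 1, and the block without a number 4. For the 30 further replication genes (3), DESeq2 gave 12, voom 10, RLE and upper-quartile factors 1, no filter 0, an adjusted p under 0.1 10, the replicate block 13, samples left out 0 to 3, and the block without a number 7 to 12. The cause of these moves was not tested.

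The sign of the fold change turned in 15 of 1134 values, each the value of a gene in an alternative setting. These lay in 5 genes whose value was near 0 and which were called in no setting. Values from the same fit are not independent, and the setting with an adjusted p under 0.1 reused the main fold changes. Leaving out single samples, *Orc5* ran from -0.027 to 0.063, *Gins4* from -0.11 to 0.014, *Pole2* from -0.15 to 0.011, *Pcna* from -0.10 to 0.00018 and *Rfc2* from -0.021 to 0.084. With the block and without a replicate number, *Orc5* came to -0.0049, *Gins4* to 0.0073 and 0.023, *Pcna* to 0.0028 and *Rfc2* to -0.0066. With voom *Rfc2* came to -0.0099.

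Over all genes, 155 were called lower and 96 higher (61.8% lower among those called), 108 and 101 (51.7%) with upper-quartile factors, 73 and 79 with no filter (48%), and 1170 and 1394 with the replicate block (45.6%). Depth limits the genes of low count most, and the lowest of the 54 had 2115 reads over the 8 samples.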
